A study of Mus musculus with 24 samples.

Results

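The effect of prenatal exposure to nano-sized particulate matter (nPM) was examined in the cerebral cortex of mouse neonates of both sexes together. The members were the genes of the count table with at least 10 counts in every cortex library. This rule kept 16660 of 48709 genes, from 12 of the 24 libraries of the series, 6 from nPM-exposed neonates and 6 from controls. It used count levels over all 12 libraries and no difference between the groups. The other 12 libraries were from blood.

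The pups were C57BL/6J mice by their labels, aged 3 to 5 days, while the treatment notes and the study's methods place collection at day 5 and the methods name the C57BL/6NJ substrain. The nPM group was born to dams that inhaled nPM for 5 hours a day on 3 days a week, from gestational day 2 to birth. The control group was born to dams kept in filtered air, and no genetic alteration was present in either group. The labels write the dose as 300 mg/m3, whereas the methods write the same figure in micrograms. Each group held 3 females and 3 males, and by the methods the 3 of a sex came from different litters. The dams, and not the pups, were the exposed animals. The labels do not say which pup came from which litter, so litter was not modelled. Libraries are called here by the first part of their titles. V09, V11 and V20 were nPM females, V13, V15 and V23 nPM males, V10, V12 and V19 control females, and V14, V16 and V24 control males.

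nPM is a nano-sized part of traffic-related air pollution, collected beside a freeway, resuspended in water and re-aerosolized. Inhaled particles of this size are known to provoke oxidative stress and inflammation in exposed tissue. In the days after birth the mouse cortex is still being assembled: projection neurons extend axons, GABAergic interneurons born in the ganglionic eminences settle into the layers, astrocytes and oligodendrocyte precursors multiply, and myelin has hardly begun to form.

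The cortex libraries held 22301409 to 33804371 counts on genes, and RNA integrity numbers (RIN) were 9.4 to 9.9 after nPM and 9.4 to 9.8 in controls. The cortical transcription factor Neurod6 and the glutamate transporter Slc17a7 were present in every library at 3439 and 7918 counts or more. Hbb-bs, a haemoglobin chain of red cells, lay at 148 to 393 CPM (counts per 1000000 counts) in the cortex. Sequencing lane 2 held 8 of the libraries and lane 3 held 4, with the same number from either group in each lane. Of the genes not kept, 16248 had no count in any cortex library and 15801 had some, including Ifng, which reached at most 0.16 CPM. Of those 15801, 312 had at least 10 counts in every nPM library but not in every control, and 411 the reverse. The promoters of the genes with the smallest p-values are given first, and their levels follow.

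After correction over all 16660 genes, 3 genes differed between nPM and control neonates, and all 3 were higher after nPM: Nr2f2, Zcchc12 and Gpr101. Nr2f2 (COUP-TFII) is an orphan nuclear receptor that marks interneurons born in the caudal ganglionic eminence. Zcchc12 is a zinc finger coactivator of BMP signalling encoded on the X chromosome, and Gpr101 is an X-linked orphan receptor known from the hypothalamus and the ventral striatum. These are 0.018% of the genes tested. The 250 bases before the transcription start of each of the 3 genes, from the RefSeq table of GRCm38.p6, are given 5′ to 3′ on the strand of the gene so that the regions ahead of the called genes can be set side by side, with letters matching the motifs described after them in capitals.
Nr2f2 (chr7:70366747-70366996, minus strand): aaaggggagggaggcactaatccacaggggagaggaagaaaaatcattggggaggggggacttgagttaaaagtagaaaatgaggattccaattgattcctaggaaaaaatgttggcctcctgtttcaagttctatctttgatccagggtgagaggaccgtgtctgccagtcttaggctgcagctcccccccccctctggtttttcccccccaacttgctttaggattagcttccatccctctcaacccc
Zcchc12 (chrX:36195654-36195903, plus strand): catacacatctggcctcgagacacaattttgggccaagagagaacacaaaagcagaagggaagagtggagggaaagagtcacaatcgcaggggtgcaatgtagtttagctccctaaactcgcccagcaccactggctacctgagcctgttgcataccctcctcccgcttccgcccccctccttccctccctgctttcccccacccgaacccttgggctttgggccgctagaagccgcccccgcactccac
Gpr101 (chrX:57503758-57504007, minus strand): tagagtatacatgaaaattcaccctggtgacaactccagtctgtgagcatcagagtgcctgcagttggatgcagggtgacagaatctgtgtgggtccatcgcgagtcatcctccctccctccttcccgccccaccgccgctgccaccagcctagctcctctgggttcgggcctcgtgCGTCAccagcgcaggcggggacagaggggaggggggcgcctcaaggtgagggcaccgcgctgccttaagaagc

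The window of Nr2f2 held 50.0% G and C with 1 CG dinucleotide, that of Zcchc12 58.8% with 9, and that of Gpr101 62.4% with 13. Over all 32817 RefSeq windows of this length the medians were 52.4% and 6. The windows were searched on both strands for GCGTG (the core of the aryl hydrocarbon receptor element), TGACG (the core of the cAMP response element, CRE), TGACNNNGC (the antioxidant response element) and AGGTCA (a nuclear receptor motif). TGACG and TGACNNNGC share their first 4 letters and can overlap. The single match was to TGACG, on the opposite strand of the Gpr101 window, 69 to 73 bases before the start. Over all windows, 28.1% held GCGTG, 17.7% TGACG, 10.2% TGACNNNGC and 14% AGGTCA. The start in the Zcchc12 and Gpr101 windows was the 5′ end of the gene in the authors' annotation, and that of Nr2f2 lay 11 bases upstream of it.

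Nr2f2 (ENSMUSG00000030551, chr7:70351944-70366735) lay at 19.8, 23.1 and 27.4 CPM (lowest, median and highest of 6 libraries) after nPM. In control cortex it lay at 14.7, 15.4 and 17.3 CPM. No control reached the lowest nPM library, and V20 was the highest of all. The log2 fold change was 0.57 (SE 0.08), a fold of 1.48, with adjusted p = 0.0481 (edgeR's quasi-likelihood test with exposure, sex and RIN, Benjamini-Hochberg adjustment). It was 0.49 in lane 2 and 0.70 in lane 3, and 0.60 in females and 0.52 in males. Nr2f1, its closest relative and a regulator of cortical area identity, had a median of 73.5 CPM after nPM and 71.8 CPM in controls (log2 fold change 0.08, adjusted p = 0.859).

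Zcchc12 (ENSMUSG00000036699, chrX:36195904-36199158) lay at 83.0, 89.2 and 115 CPM after nPM and at 61.4, 68.2 and 90.6 CPM in controls. The groups overlapped through the control library V10, which was above 3 of the 6 nPM libraries. On the log2 scale the difference was 0.40 with an SE of 0.06 (adjusted p = 0.0481), 0.36 and 0.54 in lanes 2 and 3 and 0.37 and 0.46 in females and males. Gpr101 (ENSMUSG00000036357, chrX:57496668-57503757) was a low gene, with 33 to 173 counts per library. It lay at 3.88, 5.22 and 6.76 CPM after nPM and at 1.20, 2.59 and 3.53 CPM in controls, and the groups did not overlap. The difference of 1.08 on the log2 scale (SE 0.16), a fold of 2.12, also had an adjusted p = 0.0481, with 1.27 and 0.93 in lanes 2 and 3 and 0.89 and 1.42 in females and males. Per kilobase of gene length, Zcchc12 was the most abundant of the 3 in nPM cortex at 41.3 RPKM, against 2.70 RPKM for Nr2f2 and 0.966 RPKM for Gpr101. In the 12 blood libraries the medians of Nr2f2, Zcchc12 and Gpr101 were 0.0505, 0 and 0 CPM.

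**Figure D1:**
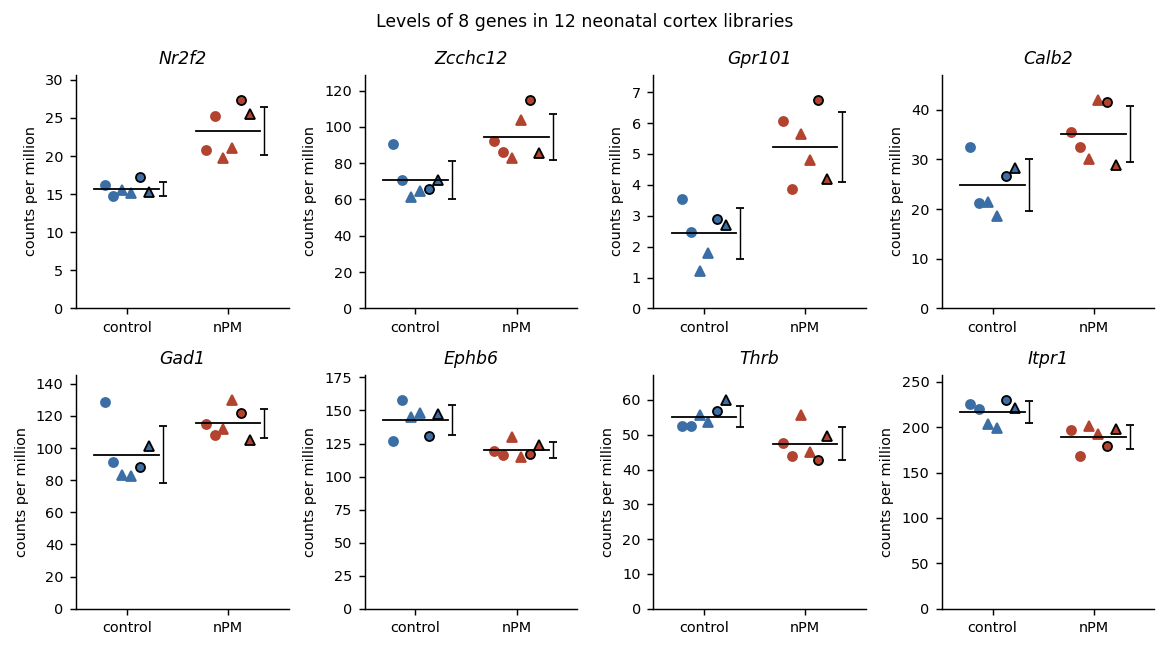
CPM (y axis, linear from 0) of 8 genes in the 12 cortex libraries, control in blue and nPM in red, with circles for females, triangles for males and a black outline for lane 3. Horizontal lines are group means and error bars the SD of 6 libraries; all Nr2f2 and Gpr101 values after nPM lie above the controls, whose highest values are 17.3 and 3.53.

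The adjusted p of the 3 genes lay just under the threshold and depended on single libraries. With each library left out in turn, the log2 fold change of Nr2f2 was 0.52 to 0.61, that of Zcchc12 0.37 to 0.45 and that of Gpr101 0.96 to 1.18. Nr2f2 stayed under an adjusted p of 0.05 without V09, V13 or V24, Zcchc12 without V13 or V24, and Gpr101 without V14 or V24. In each of the other fits with a library left out the adjusted p was 0.05 or more, reaching 0.252 for Nr2f2 and Zcchc12 and 0.369 for Gpr101. The unadjusted p of all 3 genes was under 0.005 in each of the 12 fits. No gene at all was called without V10, V11, V12, V15, V16, V19, V20 or V23, fits in which edgeR still gave 546 to 1931 genes an unadjusted p under 0.05. A single gene was called without V09 and without V14, and 4 were called without V13 and without V24. Without RIN as a covariate, with lane as a covariate, or with exposure alone in the model, Nr2f2 was the 1 gene called.

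**Figure D2:**
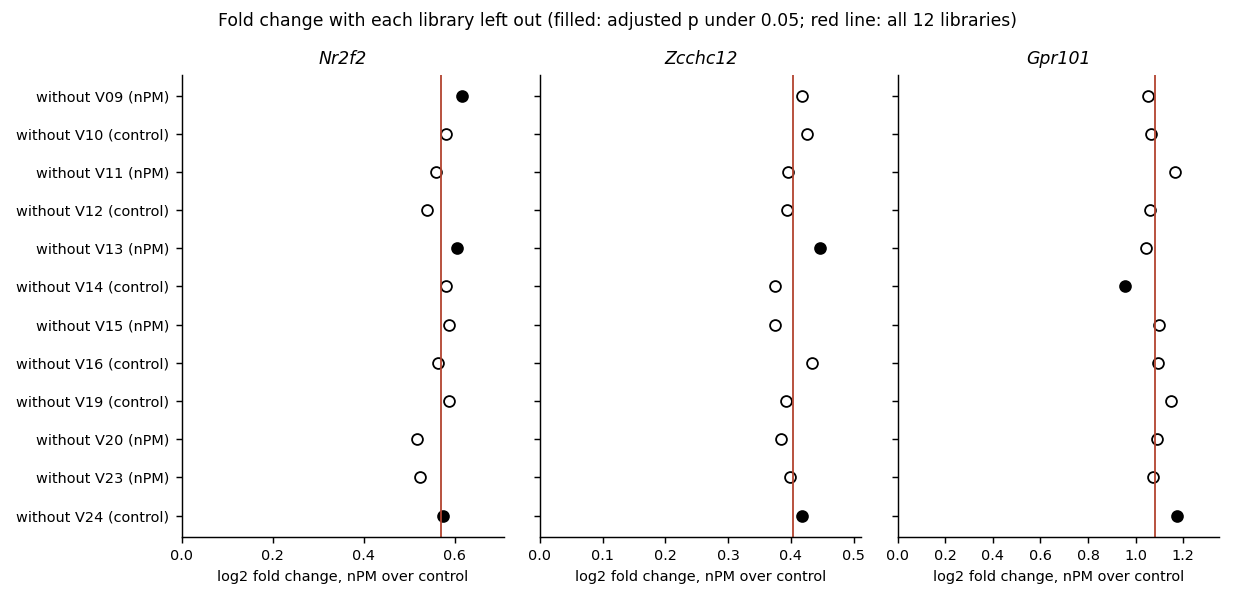
Log2 fold change (x axis, nPM over control, from 0) of the 3 called genes with each library left out (y axis). Filled points had an adjusted p under 0.05, open points did not, and the red line is the value with all libraries; the fold changes stay within 0.52 to 0.61, 0.37 to 0.45 and 0.96 to 1.18, while most points are open.

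Because so few genes passed the correction, the nominal cutoff of the study, an unadjusted p under 0.005, was used to describe the next genes. It took in 66 genes higher after nPM (0.396% of those tested) and 40 lower (0.24%), 106 in all, with a median size of 0.41 and 0.27 on the log2 scale. The 106 were 0.636% of the genes tested, and the cutoff takes in a share of about 0.005 where nothing differs. Genes taken in without any exposure effect were not told apart from the others. Fold changes over 2 were found in 3 of the 66 and in 1 of the 40. Every nPM library was above every control for 12 of the 66 and below for 5 of the 40, while over all genes tested 22 (0.132%) were above and 11 (0.066%) below. All 106 had the same direction in both lanes and in both sexes, which their selection on these same libraries favors, and 7409 and 7545 of all 16660 genes did. Apart from Nr2f2, Zcchc12 and Gpr101, no gene described from here on passed the corrected threshold.

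The 106 nominal genes rested on the libraries as well. Their number was 53 without V11, 59 without V12 and 61 without V15, and it was 179 without V16, 240 without V24 and 262 without V23. The balance of directions moved with it, from 66 higher and 40 lower with all libraries to 93 and 169 without V23 and 90 and 150 without V24.

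**Figure D3:**
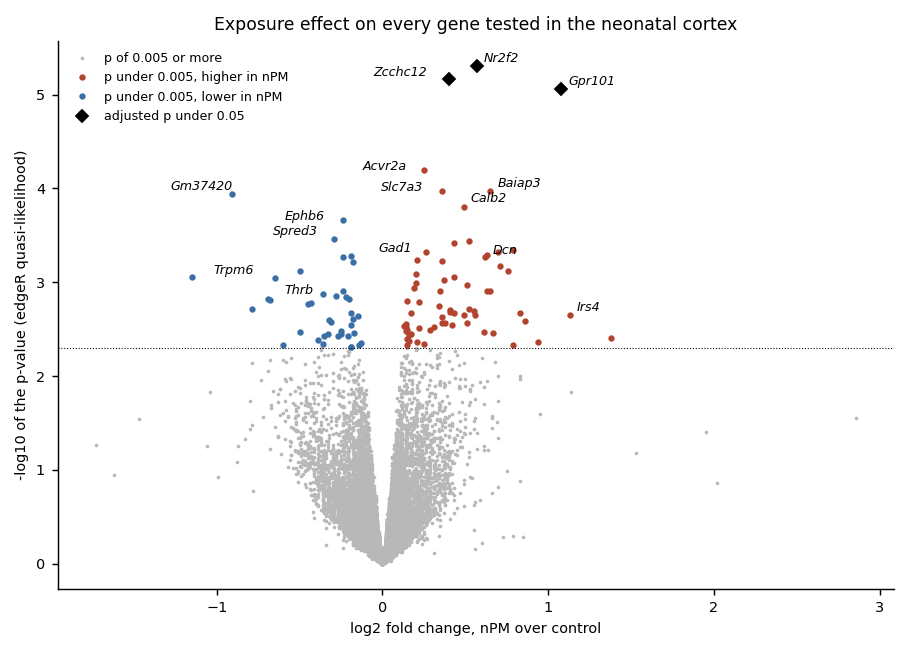
Log2 fold change (x axis, nPM over control) against -log10 of the p-value (y axis) for the 16660 genes tested. Diamonds are the 3 genes with an adjusted p under 0.05, red and blue points the other genes past an unadjusted p of 0.005 (dotted line), of which more lie on the higher than on the lower side.

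The coding genes higher after nPM with the smallest p, beside Zcchc12, Gpr101 and Nr2f2, are described first. Acvr2a, a receptor for activin, had a median of 155 CPM after nPM and 129 CPM in controls (log2 fold change 0.25, SE 0.05, adjusted p = 0.268). It ran from 138 to 168 CPM after nPM and from 121 to 144 CPM in controls, so that 5 of 6 nPM libraries were above every control. Calb2 (calretinin), a calcium-binding protein of interneurons, lay at 28.8, 34.0 and 42.0 CPM after nPM and 18.5, 24 and 32.5 CPM in controls (0.49, SE 0.10, adjusted p = 0.329). Gad1, which makes GABA from glutamate, lay at 105, 114 and 130 CPM after nPM and 82.8, 89.8 and 129 CPM in controls (0.26, SE 0.06, adjusted p = 0.462). V10 was the highest control for both genes, at 32.5 and 129 CPM, and the other 5 controls lay below every nPM library for both.

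Baiap3, a protein of dense-core vesicle trafficking, had medians of 14.2 and 8.62 CPM (0.65, adjusted p = 0.274). Slc7a3, a neuronal arginine and lysine transporter, had medians of 19.2 and 14.8 CPM (0.36, adjusted p = 0.274). Hdc, which makes histamine, was at 1.58 to 2.49 CPM after nPM and 0.875 to 1.42 CPM in controls without overlap (0.70, adjusted p = 0.462), from 24 to 70 counts per library. The chloride channel Ano2, at 1.78 to 2.80 CPM against 0.912 to 1.68 CPM, did not overlap either (0.79, adjusted p = 0.462). The adhesion receptor Adgrg2 (0.52) and AW551984 (0.43) completed the 12 coding genes with the smallest p in this direction.

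The 12 coding genes lower after nPM with the smallest p follow. Ephb6, an ephrin receptor without kinase activity, lay at 115, 118 and 130 CPM after nPM and at 127, 146 and 158 CPM in controls (-0.24, SE 0.05, adjusted p = 0.40). The groups overlapped through V13 and V10 alone, where the highest nPM and the lowest control library met. Spred3, an inhibitor of RAS signalling, had medians of 18.5 and 22.9 CPM (-0.29, adjusted p = 0.462), and Prickle1, of the planar cell polarity pathway, 57.5 and 66.6 CPM (-0.19, adjusted p = 0.462).

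Thrb, the thyroid hormone receptor beta, had medians of 46.2 CPM after nPM and 54.8 CPM in controls (-0.22, SE 0.06, adjusted p = 0.594). Hr, a corepressor that binds thyroid hormone receptors, had medians of 20.8 and 27.6 CPM (-0.36, SE 0.09, adjusted p = 0.591). Itpr1, the calcium release channel of the endoplasmic reticulum, had medians of 194 and 221 CPM (-0.20, adjusted p = 0.594), with -0.32 in females and -0.08 in males. Bhlhe40, a repressor of the circadian clock, was at -0.24 (adjusted p = 0.565), and its difference was -0.31 in lane 2 and -0.08 in lane 3.

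Rgs6, which shortens G protein signals, was at -0.18 (adjusted p = 0.462), Oser1 at -0.50 (0.509) and the septin Sept4 at -0.28 (0.594). Oser1 had -0.80 in females and -0.21 in males. Trpm6, a magnesium channel, lay at 1.06 to 1.58 CPM after nPM and 1.72 to 2.44 CPM in controls without overlap (-0.65, adjusted p = 0.512). Ermn, a cytoskeletal protein of myelinating oligodendrocytes, lay at 0.812 to 1.29 CPM and 1.20 to 2.41 CPM (-0.69, adjusted p = 0.594).

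GABAergic genes were taken from a list for the whole neuron class and from lists of interneurons by origin. All 10 GABAergic neuron genes had a higher value after nPM, with a median log2 fold change of 0.13 against -0.001 over all genes tested, and 1 of them, Gad1, passed p under 0.005. Over all genes tested 0.396% were higher and 0.24% lower at this cutoff, and 2.98% were higher and 2.86% lower at an unadjusted p under 0.05. Gad2, the other GABA-synthesizing enzyme, had medians of 94.2 and 78.7 CPM (0.19, adjusted p = 0.837), and the vesicular transporter Slc32a1 was at 0.09 and Dlx5 at 0.29. The sum of the 10 genes ran from 771 to 873 CPM after nPM and 659 to 878 CPM in controls. The highest control was again V10, and V24 followed it, while V14 was the lowest. V10 and V14 were also the highest and lowest controls of the striatum list, at 813 and 394 CPM. The part of striatal tissue in the GABAergic values was not tested.

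Of 12 genes of interneurons from the caudal eminence, 9 were higher and 3 lower, with a median of 0.08, and Nr2f2 and Calb2 passed the nominal cutoff. Reln, the secreted positional signal of Cajal-Retzius cells and later of interneurons, was at 0.13 (adjusted p = 0.837). The transcription factor Prox1 was at 0.00, the neuropeptide Vip at -0.23 and Cck at -0.19, so the 12 genes did not share a direction. Of 9 tested genes of medial eminence interneurons, 4 were higher and 5 lower (median -0.03). Sst was at 0.06, Lhx6 at 0.04 and Satb1 at -0.08, and none had an unadjusted p under 0.05.

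The 24 genes of cortical projection neurons had a median of -0.07, 6 values above 0 and 18 below, and none past the nominal cutoff. Fezf2, which specifies subcerebral neurons, was at -0.16 (adjusted p = 0.826). Crym, a thyroid hormone binding protein of deep layers, was at 0.18 (adjusted p = 0.837). The sum of the list was 3390 to 3630 CPM after nPM and 3330 to 3910 CPM in controls, where V10 was the lowest. In bulk tissue, fewer cells of a type and less RNA per cell cannot be told apart, here and in every list below.

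Genes known from tissue next to the cortex were tested as lists because a cortical dissection can carry different amounts of them. Of 30 hypothalamus and amygdala genes, 12 were kept by the count rule, of which 9 were higher, with a median of 0.11. Zcchc12, Gpr101, Hap1 and Irs4 were higher and Trh lower at the nominal cutoff, 5 of the 12, where 0.396% and 0.24% of all genes were higher and lower at this cutoff. The list was drawn up with the values of Zcchc12 and Gpr101 known, so their presence in it is no finding. Like the other lists, it was chosen with earlier results of these data known. The share of 5 in 12 is therefore no independent support for Hap1, Irs4 and Trh either. Hap1, a huntingtin-associated transport protein, lay at 50.5, 70.6 and 98.8 CPM after nPM and 36.8, 52.1 and 73.7 CPM in controls (0.41, adjusted p = 0.624). Irs4, an insulin receptor substrate, lay at 0.759, 1.66 and 2.98 CPM and 0.488, 0.774 and 1.11 CPM (1.13, adjusted p = 0.624), with 16 to 87 counts per library. Trh, thyrotropin-releasing hormone, lay at 5.21 to 6.24 CPM after nPM and 6.22 to 8.14 CPM in controls (-0.33, adjusted p = 0.68).

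Most defining genes of the hypothalamus had few counts. Otp was at 0 in 8 of 12 libraries, Oxt in 10, Pmch in 7, Avp in 6 and Agrp in 5, and none of these exceeded 5 counts anywhere. Hcrt had 1 to 12 counts. Pomc had 22 to 48 counts in every library, with medians of 1.27 CPM after nPM and 1.26 CPM in controls (log2 fold change 0.03), and Nkx2-2 had 43 to 86 counts (-0.05). Of the 18 members under the count rule, 13 had a higher and 3 a lower mean after nPM, 2 had no count in any library, and none was tested. Of these 18, 10 never exceeded 5 counts in a library, so the direction of a mean can rest on a few reads. Isl1, a transcription factor of hypothalamic and striatal neurons, was the most abundant of them, at 1.85, 2.53 and 4.32 CPM after nPM and 0.073, 1.31 and 3.56 CPM in controls. Sim1 reached 1.11 CPM (25 counts) in V20 and at most 0.0953 CPM in any control. Dlk1 had means of 0.31 and 0.0932 CPM, Lhx1 of 0.338 and 0.147 CPM, Fezf1 of 0.132 and 0.0338 CPM and Ghrh of 0.132 and 0.0411 CPM. V20 was the highest nPM library for Isl1, Sim1, Dlk1, Lhx1 and Fezf1, and V10 the highest control for Isl1, Dlk1, Lhx1 and Fezf1. V20 was also the highest nPM library for Zcchc12, Gpr101, Hap1, Irs4 and Baiap3. Without V20 the log2 fold changes were 0.38 for Zcchc12, 1.09 for Gpr101, 0.38 for Hap1, 0.99 for Irs4 and 0.66 for Baiap3. The summed hypothalamus and amygdala list ran from 497 to 659 CPM after nPM and 460 to 512 CPM in controls, and the part of tissue composition in these differences was not tested beyond these values.

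Of 9 thalamus genes, 8 were higher (median 0.20), Calb2 and Ntng1 at the nominal cutoff, where 0.396% of all genes were higher. Ntng1, netrin-G1 of thalamocortical axons, lay at 23 to 28.2 CPM after nPM and 13.9 to 23 CPM in controls (0.34, adjusted p = 0.624). The thalamic markers Gbx2 and Olig3 had at most 5 and 1 counts, Prkcd was at 0.02 and Tcf7l2 at 0.24 (adjusted p = 0.883), or -0.02 without V09. The summed list ran from 247 to 278 CPM and from 227 to 261 CPM, with V15 and V10 the highest of their groups.

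Of 17 striatum genes, 15 were higher (median 0.21), and none passed the nominal cutoff. Tac1, a tachykinin of striatal neurons, lay at 15.6 to 21.5 CPM after nPM and 7.66 to 21.2 CPM in controls (0.40, adjusted p = 0.837). Drd2 ran from 0.912 to 7.66 CPM among the controls alone, and the summed list from 394 to 813 CPM, again with V10 highest, while the nPM libraries lay between 598 and 705 CPM. In the choroid plexus list 8 of 10 genes were higher (median 0.28, none under an unadjusted p of 0.05). Ttr, its thyroxine carrier, lay at 225 to 484 CPM after nPM, and V14, the lowest control, was at 27.2 CPM against 330 CPM for the control median.

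The olfactory bulb list had 8 of 9 genes higher (median 0.18) and the hippocampus list 8 of 10 (median 0.08), neither with a gene past the nominal cutoff. Fibcd1 of the hippocampus list was at 0.33 (adjusted p = 0.811) and Dkk3 at -0.17 (adjusted p = 0.826). The mitral cell gene Cdhr1 reached 36.3 CPM in V15 and 32.3 CPM in V10, against group medians of 14.2 and 12.7 CPM. The median fold change over these neighbouring tissues, 0.08 to 0.28, was thus above that of all genes in each of the 6 lists, while the summed levels of each overlapped between the groups.

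**Figure D4:**
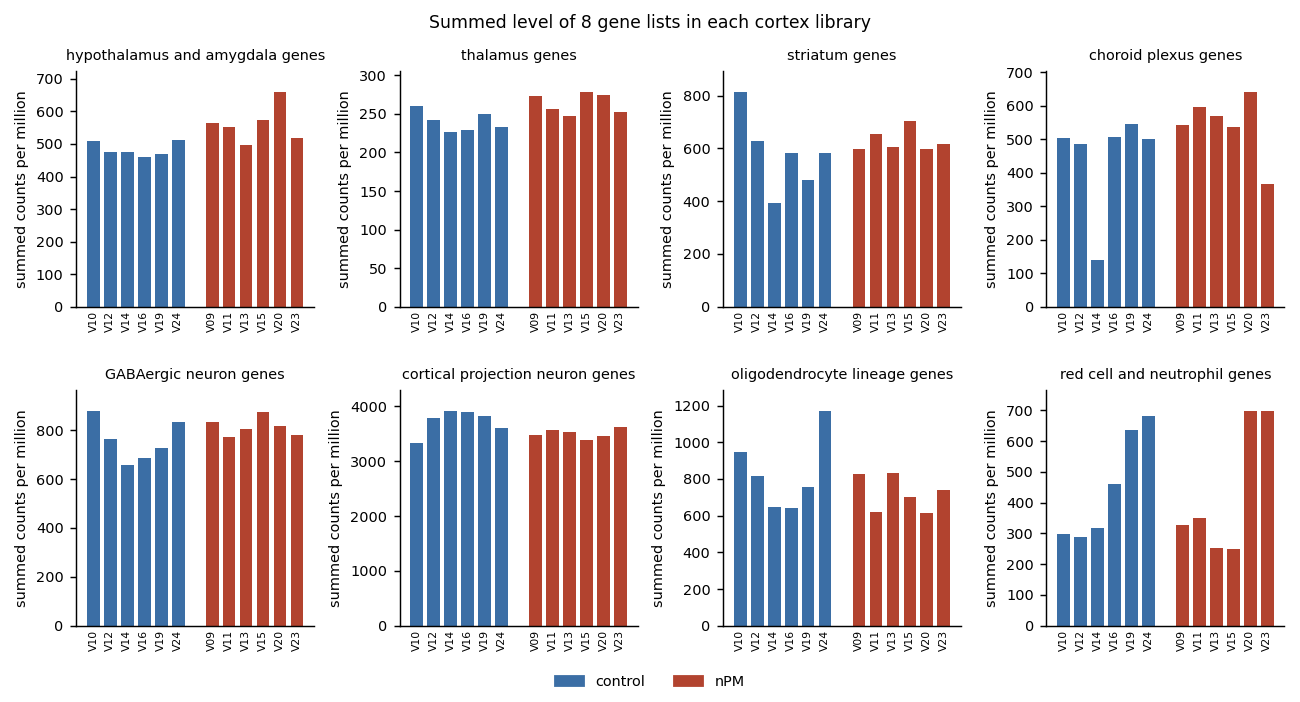
Summed CPM (y axis, from 0) of 8 gene lists in each cortex library, controls in blue and nPM in red. The hypothalamus and amygdala sum is highest in V20 at 659 and the striatum sum in the control V10 at 813, and every list overlaps between the groups.

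Dcn (decorin), a matrix proteoglycan of meningeal fibroblasts, was among the larger differences, at 27.5, 29.9 and 33.8 CPM after nPM and 14.4, 18.2 and 27.5 CPM in controls (0.62, SE 0.14, adjusted p = 0.462). The difference was 0.87 in lane 2 and 0.23 in lane 3. Of 14 meninges and fibroblast genes, 12 were higher (median 0.21), and Col1a1, at -0.31, reached 140 CPM in V10 and was at 0.03 without that library. Endothelium and pericyte genes were close to all genes (18 tested, 14 higher, median 0.04, none under an unadjusted p of 0.05), as with Cldn5 at 0.11. Red cell and neutrophil genes had a median of -0.03 over 6 tested. Their sum was 251 to 698 CPM after nPM and 289 to 682 CPM in controls, and the 4 libraries of lane 3 were the highest.

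Among glia, genes of the oligodendrocyte lineage are given by stage. The precursor genes Pdgfra (0.07), Olig2 (0.10) and Sox10 (0.10) were near 0, and the myelin genes Mbp (-0.42), Mag (-0.80) and Mobp (-1.06) had the lower values. Mag, the myelin-associated glycoprotein, was the only member under an unadjusted p of 0.05, at 4.45, 7.17 and 11.7 CPM after nPM and 4.67, 12.8 and 25.6 CPM in controls (adjusted p = 0.837). The control V24 held the highest Mag and Mbp, with Mbp at 268 CPM against a control median of 138 CPM. Without V24 the values were -0.14 for Mbp, -0.35 for Mag and -0.28 for Mobp. Over the 14 genes, 11 were lower and the median was -0.23. The Mag difference was -0.24 in lane 2 and -1.50 in lane 3.

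Astrocyte genes had a median of 0.00 (14 tested, 9 higher), with the water channel Aqp4 at 0.04 and Gfap at 0.02. Of 20 microglia genes, 15 were lower (median -0.08) and none was under an unadjusted p of 0.05. Tmem119 had medians of 6.94 and 8.45 CPM (-0.28, adjusted p = 0.848) and Cx3cr1 36.2 and 32.6 CPM (0.03). V13 was the highest nPM library and V24 the highest control for the summed astrocyte, microglia and oligodendrocyte lists. Radial glia and progenitor genes had a median of 0.12 with 13 of 15 higher and 1, Top2a, under an unadjusted p of 0.05.

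No gene of the inflammatory lists reached an unadjusted p of 0.05. Of 26 tested cytokine and NF-kB genes 10 were higher (median -0.03), and the smallest p-values were those of Il18 (0.12, adjusted p = 0.848) and Tlr3 (-0.21, adjusted p = 0.848). Of 28 interferon response genes 10 were higher (median -0.04), with Ifnar2 at 0.12 (adjusted p = 0.853) and Irgm1 at -0.28 (adjusted p = 0.848).

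The stress lists gave small values too. NRF2 and antioxidant genes, which answer oxidants and electrophiles, had a median of 0.03 with 25 of 34 higher and none under an unadjusted p of 0.05. The glutathione transferase Gstm1 was at 0.11 (adjusted p = 0.837), the haem-degrading enzyme Hmox1 at 0.22 and the NRF2 inhibitor Keap1 at -0.07. Of 8 tested aryl hydrocarbon receptor genes 3 were higher (median -0.04). Ahr itself was at 17.1 to 19.7 CPM after nPM and 18.4 to 22.0 CPM in controls (-0.11, adjusted p = 0.837). The p53 and DNA damage list had a median of 0.02 over 30 genes, with the cell cycle inhibitor Cdkn1a at 0.19 (adjusted p = 0.837) and Zmat3 at -0.21 (adjusted p = 0.837). The integrated stress response list had a median of 0.03 over 21 genes.

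The lists for PI3K, CREB and neurotrophin signalling were drawn up here because the study names PI3K, CREB1 and BDNF. It names PI3K as an enriched pathway, and CREB and BDNF as upstream regulators inferred from the overlap of its genes with a database. The transcript levels given here are a different measure and do not test that inference. PI3K and AKT genes had a median of -0.02 with 22 of 29 lower, and Akt2 had the smallest p (-0.12, adjusted p = 0.837). The CREB pathway and activity-dependent list had a median of -0.06 with 25 of 33 lower and none past the nominal cutoff. Creb1 had medians of 101 and 104 CPM (-0.02, SE 0.04, adjusted p = 0.939). Bdnf, a growth factor of activity-dependent transcription, had medians of 15.8 and 15.1 CPM (0.02, SE 0.11, adjusted p = 0.988), with 0.24 in lane 2 and -0.38 in lane 3. Its fold change was -0.06 to 0.09 with each library left out. The members of the CREB list with an unadjusted p under 0.05 were Rgs2 (0.16) and the nuclear receptor Nr4a2 (0.30) on the higher side. On the lower side they were Homer1 (-0.11), the activin subunit Inhba (-0.22) and Crem (-0.19). At that p, 2.98% of all genes were higher and 2.86% lower.

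Among the 21 activin, BMP and TGF-beta genes, 11 were higher and the median was 0.01. The activin receptor Acvr2a was the 1 member past the nominal cutoff. The activin antagonist Fst was at 0.83 (adjusted p = 0.826, means of 1.90 and 1.09 CPM) and Inhba at -0.22 (adjusted p = 0.837). Neurotrophin genes had a median of -0.04 over 10, with the receptor Ngfr at 0.35 (adjusted p = 0.826) and Sorcs1 at -0.17 (adjusted p = 0.837).

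Axon guidance genes, which steer growing axons and migrating interneurons, were as often higher as lower, 35 against 32 of 67 (median 0.01). Nrp2 and Ntn1 were higher and Ephb6 lower at the nominal cutoff. Nrp2, a semaphorin receptor, lay at 65.7, 74.7 and 97.7 CPM after nPM and 43.0, 57.7 and 78.6 CPM in controls (0.37, SE 0.09, adjusted p = 0.526). Ntn1, the secreted guidance cue netrin-1, lay at 13.6 to 17 CPM and 8.28 to 16.4 CPM (0.38, adjusted p = 0.657). A further 5 genes were higher and 7 lower at an unadjusted p under 0.05, 7 and 8 of 67 in all, where 2.98% and 2.86% of all genes were higher and lower. Among them the ephrin system was on both sides, with Efnb3 at 0.18 and Epha3 at 0.15 but Epha4 at -0.16, Efna5 at -0.26 and Ephb2 at -0.12.

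At the synapse, Gabra2, an alpha subunit of the GABA-A receptor, lay at 163 to 171 CPM after nPM and 138 to 164 CPM in controls (0.15, SE 0.04, adjusted p = 0.594). Gabrg1 (0.15), Glra3 (0.19) and Glra2 (0.14) had an unadjusted p under 0.05 on the same side, where 2.98% of all genes were higher. The 20 GABA and glycine receptor genes had a median of -0.01. Glutamate receptor genes had a median of -0.03 over 24, with Grin2a at -0.22 (adjusted p = 0.837). Of 33 synaptic vesicle and scaffold genes 30 were lower, by a median of -0.08, where 8432 of all 16660 genes were lower. Homer1, Stx1a, Shank2 and Dlg2 were under an unadjusted p of 0.05 at -0.10 to -0.13, where 2.86% of all genes were lower. The sum of the 33 genes, 8790 to 9780 CPM after nPM, overlapped the 9050 to 10300 CPM of the controls.

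Enzymes and transporters of glutamate, arginine and histamine had a median of 0.02 over 37 genes. Of them 3 passed the nominal cutoff, Slc7a3, Gad1 and Hdc, all higher, where 0.396% of all genes were. The study names the metabolism of these compounds as enriched among its own cortex genes. The list was chosen with earlier results of these data known, so its share is no independent support. Arg2, which splits arginine in mitochondria, had medians of 6.29 and 5.56 CPM (0.36, adjusted p = 0.837). Arg1 was under the count rule, at 0.291 to 0.526 CPM after nPM and 0.0321 to 0.222 CPM in controls, and was not tested. The neuropeptide list had 12 of 22 genes higher (median 0.01).

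Mitosis and G2/M genes were higher in 26 of 28 cases with a median of 0.17, and 7 had an unadjusted p under 0.05, all higher, with none past the nominal cutoff. Over all genes 2.98% were higher at that p. Examples were the kinetochore protein Nuf2 (0.25, adjusted p = 0.826), Aurka (0.38, adjusted p = 0.826), Cdk1 (0.35, adjusted p = 0.837) and Top2a (0.21, adjusted p = 0.837). The sum of the list was 251 to 285 CPM after nPM and 199 to 282 CPM in controls, where V16 was highest. Replication-dependent histone genes had a median of 0.08 over 57. Cytosolic ribosomal protein genes were higher in 72 of 77 cases by a median of 0.05, nuclear oxidative phosphorylation genes in 64 of 77 by 0.02, and neither list had a gene past the nominal cutoff. The clustered protocadherins had a median of 0.00 over 56 genes.

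**Figure D5:**
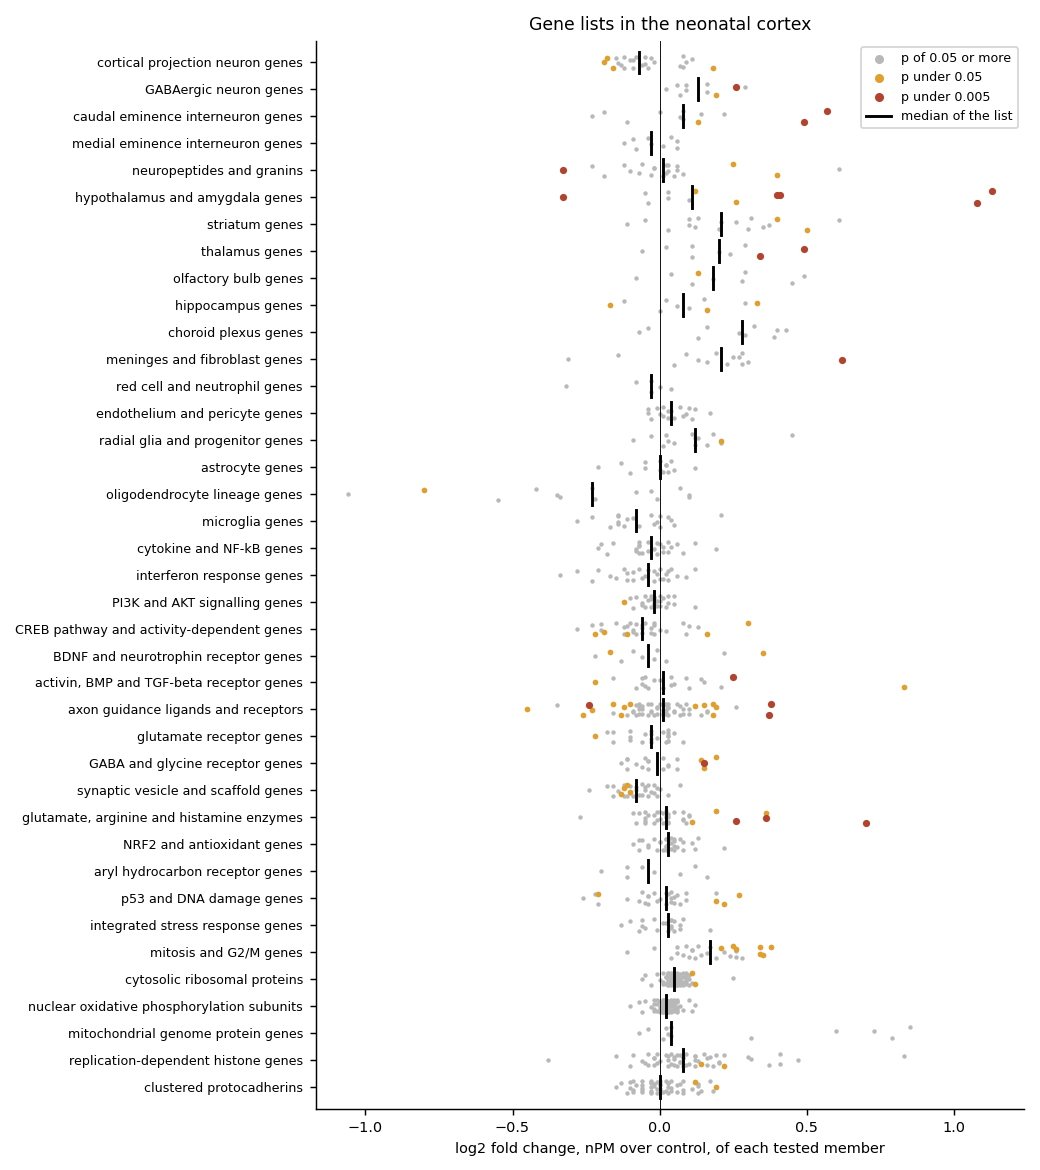
Log2 fold change (x axis, nPM over control) of every tested member of the 39 gene lists (y axis), colored by unadjusted p, with a black bar for the median of the list. The medians run from -0.23 for the oligodendrocyte lineage to 0.28 for the choroid plexus, and points past an unadjusted p of 0.005 are few.

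By gene type, 63 of the 66 higher and 32 of the 40 lower genes were coding, out of 14050 coding genes tested. The others were Rps4l (0.36), Gm16702 (0.52) and Gm2541 (0.86) on the higher side. On the lower side, those with the smallest p were Gm37420 (-0.91, adjusted p = 0.274), 9130024F11Rik (-0.24) and Rps13-ps2 (-1.15). Rps4l, Gm2541 and Rps13-ps2 are pseudogenes, whose reads cannot be told from those of their parent genes in the counts. The 829 TEC genes, short annotations that await experimental support and lie often inside introns, had a median of -0.19. Of them 5 (0.603%) were past the nominal cutoff, all lower. Over all genes 0.24% were lower at this cutoff and 0.636% were past it in either direction. The TEC genes took 0.244% to 0.336% of the counts after nPM and 0.208% to 0.376% in controls. The 95 sense intronic genes had the same median of -0.19. On the X chromosome 8 of 567 genes (1.41%) passed the nominal cutoff, all higher, including Zcchc12, Gpr101, Slc7a3, Adgrg2 and Irs4, and the median of all 567 was 0.03. The share in either direction was as high on chromosome 14 (1.47%, 5 higher and 3 lower) and chromosome 16 (1.43%, 3 higher and 4 lower), against 0.636% of all genes. Higher genes alone were 8 of 567 on the X chromosome, 5 of 544 on chromosome 14 and 3 of 490 on chromosome 16. Over all genes 0.396% were higher at this cutoff.

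The exposure effect was also compared between the sexes. With an exposure by sex term in the model, edgeR called 0 genes at an adjusted p under 0.05, with 1701 at an unadjusted p under 0.05 and 240 (1.44%) under 0.005. limma voom called 0 as well, and DESeq2 68. For Nr2f2, Zcchc12 and Gpr101 the adjusted p of the term was 0.936, 0.903 and 0.873. Among the genes named above and past the nominal cutoff for exposure, Oser1 and Itpr1 had the smallest p of this term, and its adjusted p was 0.418 and 0.438.

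The genes most like the 3 called genes across libraries were found from the residuals of log2 CPM after removal of the mean of each exposure and sex, over 12 libraries. Closest to Nr2f2 was B130024G19Rik (r = 0.935), a transcript on the opposite strand that overlaps the 5′ part of Nr2f2. The sources used here do not give the strandedness of the counts, and reads of the overlap cannot be told apart without it; B130024G19Rik had medians of 2.23 CPM after nPM and 1.89 CPM in controls (0.40, adjusted p = 0.837). Closest to Zcchc12 was Eomes (r = 0.944) and closest to Gpr101 Ephx1 (r = 0.971). These are descriptions over few libraries that share lanes and sexes. Of the 3 called genes, Nr2f2 followed neither Zcchc12 (0.126) nor Gpr101 (-0.147), and Zcchc12 and Gpr101 were at 0.577.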

How the data were processed

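RNA from 12 cortices and 12 blood samples was depleted of ribosomal RNA with RiboZero Gold and sequenced on an Illumina HiSeq. The authors checked reads with FastQC, trimmed adapters with Trimmomatic where needed, aligned to mm10 (GRCm38) with HISAT2 and counted on Gencode M11 genes with featureCounts 1.5.0-p3. The deposited counts are whole numbers per gene and library, without normalization. Whether counting used strand is not given in the sources used here. The deposited gene table gives coordinates and lengths, and a mean RPKM that the authors made over all 24 libraries, which was not used. RPKM in the text was computed here from the deposited counts and lengths.

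Genes with at least 10 counts in each of the 12 cortex libraries were tested with edgeR 4.0.16 in R 4.3.3 (TMM normalization, quasi-likelihood F test, two-sided) on exposure, sex and RIN, with Benjamini-Hochberg adjustment over all 16660 genes. The study fitted limma voom models with sex and RIN as covariates and set a nominal cutoff of p under 0.005, which was kept here beside an adjusted p under 0.05. Lane and single-sex fold changes were differences in mean log2 CPM between the nPM and control libraries concerned, without covariates. The exposure by sex term came from a model with exposure, sex, RIN and that term. It need not equal the gap between the single-sex values. CPM used TMM-scaled library totals of 22301409 to 33804371 counts. No 2 cortex libraries were copies (smallest chi-square per gene 7.232). Each library came from its own pup, and p-values measure the spread between these pups. A female and a male of a group can share a litter, so the pups may be fewer independent exposures than the tests assume.

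The members and the 39 gene lists were chosen with earlier results of these data known, so no list is independent support for its direction. Named genes were those past the adjusted threshold, the 12 coding genes with the smallest p in each direction, 3 of other types in each direction, list members past the nominal cutoff or with the smallest p, markers, and a few genes named by the study. Other members of the lists, named as examples, were chosen after their values were seen. Some members counted in the lists are not reported here by name. Alternatives were RLE normalization, other filters on low counts, DESeq2 1.42.0, limma voom (limma 3.58.1), other covariates and each library left out. In counts simulated from the 12 libraries over 16660 genes, 82 of 100 genes with a fold of 1.5 and 91 of 100 with a fold of 2 were called at an adjusted p under 0.05. The simulation gave a gene the same mean in every library of a group, without sex, RIN, lane or dissection effects. It also changed far more genes than the 3 called here, which eases the adjustment. These shares are therefore not the power of the real comparison. Promoter windows came from the RefSeq table of GRCm38.p6, in which all 3 called genes had a window.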

Additional observations from a re-analysis of the deposited data

Results flagged for a closer look

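Zcchc12 in the control group had a library apart from the others. V10 was at 90.6 CPM and the other 5 controls at 61.4 to 70.7 CPM, a gap of 0.679 of the range of the group. Of the 86 groups of 6 libraries that were looked at in this way, this was the 1 past Dixon's critical value for 6 samples, and chance alone marks about 1 in 20. Without V10 the log2 fold change of Zcchc12 was 0.43 (adjusted p = 0.226, edgeR's quasi-likelihood test). V10 was also the highest control for Gad1, Calb2, Gpr101 and Hap1 and for the summed striatum, thalamus and hippocampus lists, and what part this had in the Zcchc12 value was not tested.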

How the results depend on the processing

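With all 12 libraries, RLE normalization, filterByExpr, at least 1 count in every library and limma voom each called Nr2f2, Zcchc12 and Gpr101, as the reported fit did. The count of genes at an adjusted p under 0.05 was 185 with at least 1 count in any library, 22 with DESeq2, and 1 without RIN, with lane as a covariate or with exposure alone. It was 0 to 4 with each library left out. At an unadjusted p under 0.005 the count was 526 with at least 1 count in any library and 53 to 262 with each library left out, and 93 to 157 under the other alternatives, against 106. The exposure by sex term had 379 calls with at least 1 count in any library and 68 with DESeq2. The cause of these shifts was not tested. Bdnf changed sign with single libraries left out (-0.0554 to 0.0924). Of 903 fold changes of 43 named genes, examples from lists left aside, under the alternatives, 820 kept their direction and side of the threshold, 35 lost the call, 43 gained it and 5, all of Bdnf, changed sign. Of the list examples, Col1a1, Tcf7l2 and Cdhr1 changed sign without V10, V09 and V15, and Pomc, Prox1, Lhx6, Prkcd, Gfap, Cx3cr1 and Hbb-bs, all near 0, without single libraries. Of 780 list medians, 2 moved by more than the spread between replicates. No paired analysis was possible because the labels give the groups no shared replicate numbers. Some genes with few counts had wide errors, with SEs of 0.16 for Gpr101 and Hdc and 0.30 for Irs4. Better counted genes could have errors as wide or wider, as with Col1a1 (0.24) and Mag (0.35). The 15801 genes with counts under the rule were not tested.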

Other observations

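No list was made of imprinted genes, which are expressed from the maternal or paternal copy alone, and those given here were chosen after their values were seen. Nnat, a membrane protein of the developing brain expressed from the paternal copy, was at 0.43 (adjusted p = 0.512), and Peg12 at 0.63 (adjusted p = 0.565). Peg10 (0.26), Ndn (0.12) and Magel2 (0.10) were in the hypothalamus and amygdala list and also had positive values, as had Igf2 of the meninges and fibroblast list (0.19, adjusted p = 0.837). Dlk1 was under the count rule, with means of 0.31 CPM after nPM and 0.0932 CPM in controls. No full list of imprinted genes was examined, and no test was made of them as a group. The p-values are those of edgeR's quasi-likelihood test over 6 libraries a group.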
